A study of Mus musculus with 6 samples.

Results

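Keratin-associated protein (KAP) genes outside chromosome 11 were examined in dorsal skin of mice given recombinant IL-31 (rIL-31) or saline. Members were all genes whose RefSeq symbol starts with Krtap and which do not lie on chromosome 11. RefSeq places 33 such genes on the assembly GRCm38.p6, the one behind mm10, and 31 of them were among the 24061 genes of the count table. Of these 31, 23 lie on chromosome 16, 5 on chromosome 7 and 3 on chromosome 10. Krtap28-13 and Krtap6-3, the remaining 2, were not analysed here. Female C57BL/6 mice of 8 to 14 weeks received an intradermal injection into the shaved back every day for 14 days, either 50 μl of saline or the same volume with 20 μg of rIL-31. RNA from whole skin was sequenced in 3 libraries of each group. Whether the 3 samples of a group were 3 separate animals is not stated, and the p-values therefore reflect only how far these samples spread, which may be technical.

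KAPs form the matrix in which the keratin filaments of the hair shaft are embedded, and disulfide bonds link them to the hair keratins. Their genes are switched on late in the growing (anagen) follicle, in the keratinizing cells of the hair cortex and cuticle. By composition they are divided into high glycine-tyrosine, high sulfur and ultrahigh sulfur proteins. In whole skin, fewer cells that make hair shaft and less RNA in each of them cannot be told apart.

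KAP transcripts were abundant in all 6 libraries. The 31 members took between 0.313% and 0.411% of all counts in a library, with totals of 21710679 to 25552684 counts. Levels were given as CPM, counts scaled to the size of the library after TMM normalization, and differences as log2 fold changes of rIL-31 over saline from edgeR's quasi-likelihood test. Filtering on low counts left 16371 genes, among them 30 members. The member that did not pass was Krtap13, a chromosome 16 gene with 2 counts in saline replicate 2 and 0 in each other library. Per kilobase of transcript, the highest mean levels in saline-treated skin were those of Krtap8-1, at 999 CPM per kb, Krtap15, at 652, Krtap6-1, at 564, and Krtap22-2, at 543. The lowest levels among the tested members were those of Krtap5-3, at 0.468 CPM per kb, and Krtap20-2, at 1.82.

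The words rose and fell are used of genes with a Benjamini-Hochberg false discovery rate (FDR) below 0.1 over all tested genes. By this rule 3 members rose, 6 fell and 21 did not pass. Over all tested genes 4.51% rose and 3.73% fell, so the share of members that fell, 6 of 30, lay above the background and the share that rose, 3 of 30, was closer to it. All 6 members that fell lie next to one another on chromosome 16, with only Krtap19-9b among them, and belong to 1 group of glycine-tyrosine genes, the Krtap19 family with Krtap16-3. The 3 that rose were Krtap5-5 on chromosome 7, Krtap10-4 on chromosome 10 and Krtap6-5 on chromosome 16. The median log2 fold change of the tested members was 0.01, the same to 2 decimals as the 0.01 of all tested genes. The counts changed with the libraries used. Without saline replicate 1, 3 members were higher and 6 lower, where 2.28% and 1.61% of all tested genes were. Without saline replicate 2, none was higher at this FDR in edgeR's test (4 at an unadjusted p below 0.05) and 5 were lower, against 1.47% and 1.02% of all tested genes. Without saline replicate 3, 1 was higher and 5 lower, against 1.68% and 1.31%. Without rIL-31 replicate 1, 2 members were higher and 6 lower, against 2.46% and 1.98%, and without rIL-31 replicate 2, 2 were higher and 5 lower, against 2.79% and 2.34%. Without rIL-31 replicate 3, 6 were higher and 9 lower, against 12.3% and 11.8% of all tested genes.

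**Figure D1:**
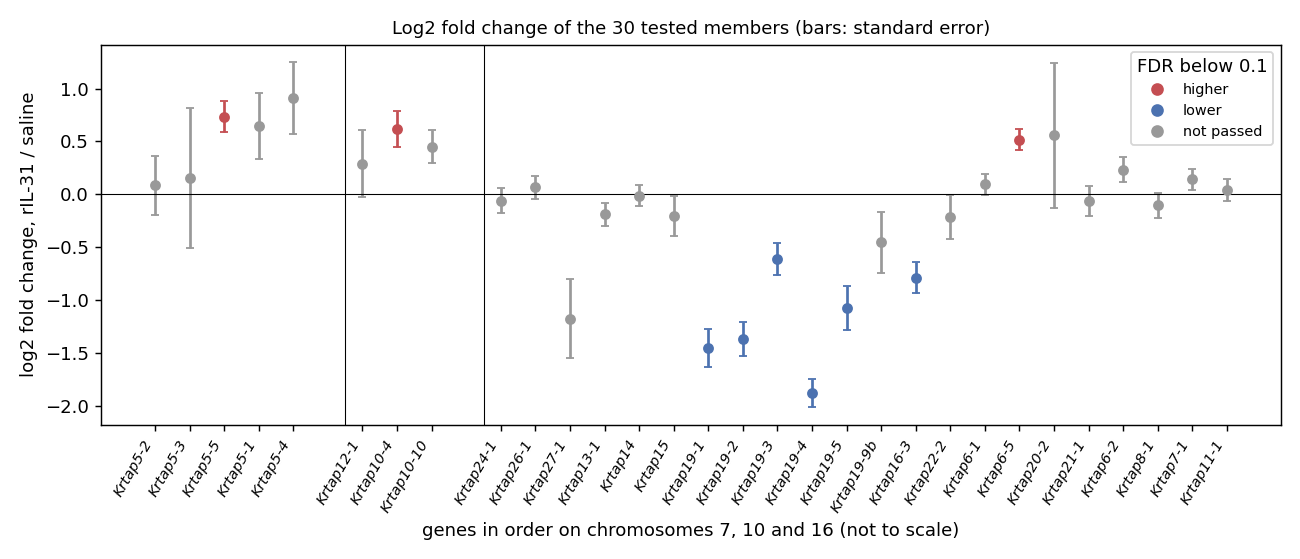
Log2 fold change (rIL-31 over saline) of the 30 tested members in their order along chromosomes 7, 10 and 16, with standard errors; colour marks the call at an FDR below 0.1. The 6 members that fell stand side by side on chromosome 16, broken only by Krtap19-9b, and all 8 members on chromosomes 7 and 10 lie above 0.

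The Krtap19 genes encode small glycine-tyrosine proteins. Krtap16-3 was included with them because its transcript shares some sequence, 1.09% of its 50-base stretches, with those of Krtap19-1 and Krtap19-2. This group was not planned beforehand and holds all 6 members that fell. Its counts, sums and share are therefore descriptive only. The 7 genes of this group lie on the minus strand of chromosome 16 between 88868918 and 88962873, a stretch of 94 kb that held no other gene of the table. Of the 7, 6 fell and Krtap19-9b did not pass. Krtap19-4 showed the largest change of all members. It was measured at 60.1, 60.9 and 57.9 CPM in the saline libraries and at 17.2, 17.8 and 13.7 CPM in the rIL-31 libraries. The groups stood far apart, and the level was 3.68-fold lower after rIL-31 (log2 fold change -1.88, standard error 0.13, FDR 2.62e-05). Krtap19-1 was at 23.9, 25.2 and 34.2 CPM in saline and at 8.63, 11.4 and 10.3 CPM in rIL-31 libraries. This was a fall of 2.74-fold, with no overlap (log2 fold change -1.45, standard error 0.18, FDR 0.00128). Krtap19-2 was at 52.1, 58.0 and 70.2 CPM in saline and at 27.9, 20.7 and 21.2 CPM in rIL-31 libraries. It was 2.58-fold lower (log2 fold change -1.37, standard error 0.16, FDR 0.000872), again with no overlap between the groups.

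Krtap19-5 and Krtap16-3 fell less. Krtap19-5 was at 76.2, 102 and 121 CPM in saline and at 50.3, 33.8 and 57.8 CPM in rIL-31 libraries (log2 fold change -1.07, standard error 0.21, FDR 0.0155). Krtap16-3 was at 140, 165 and 190 CPM in saline and at 83.3, 91.5 and 112 CPM in rIL-31 libraries (log2 fold change -0.79, standard error 0.15, FDR 0.0119). In both genes every rIL-31 library lay below every saline library. Krtap19-3 was at 79.5, 86.1 and 105 CPM in saline and at 69.9, 49.7 and 58.1 CPM in rIL-31 libraries (log2 fold change -0.61, standard error 0.15, FDR 0.0455). Leaving out saline replicate 2, rIL-31 replicate 2 or saline replicate 3 ended its call (highest FDR 0.212), whereas the other 5 calls in this group held without any 1 library. Krtap19-9b was the exception. Its libraries overlapped, at 74.5, 104 and 149 CPM in saline and 66.0, 55.6 and 118 CPM in rIL-31 (log2 fold change -0.45, standard error 0.29, FDR 0.432). Without rIL-31 replicate 3, in which it was highest within its group, it was at -0.85 with an FDR of 0.0249.

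**Figure D2:**
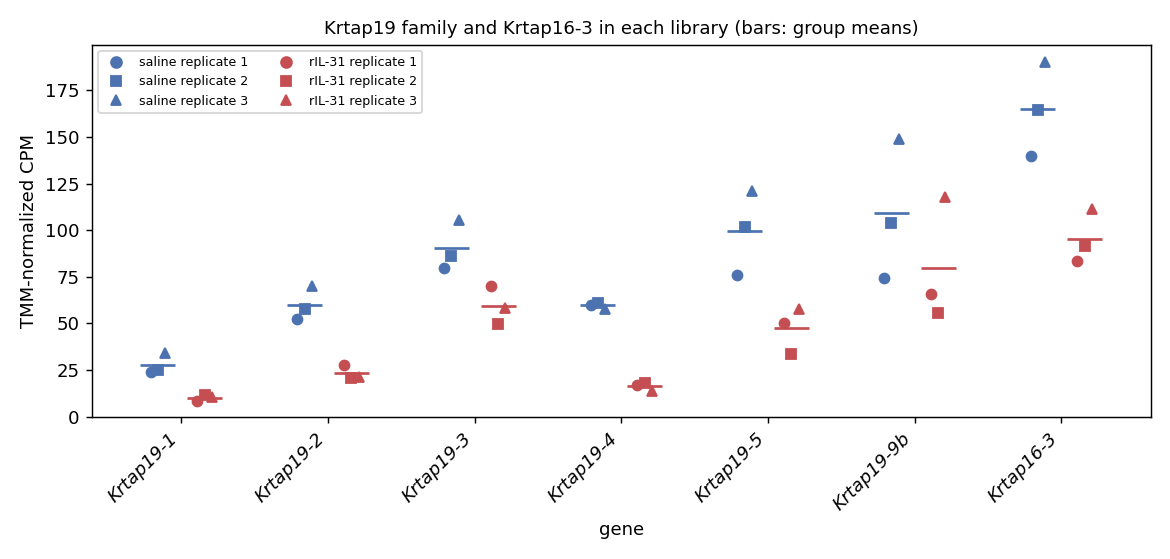
TMM-normalized CPM of the 7 genes of the Krtap19 group in each library (marker shape: replicate; bar: group mean). The groups lie apart in 6 of the 7 genes and overlap in Krtap19-9b. Of all tested genes 12.9% lay apart with rIL-31 lower, and this set holds every member that fell.

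The log2 fold changes of the 6 genes that fell ran from -1.88 in Krtap19-4 to -0.61 in Krtap19-3, and differences in size between genes were not tested. Of the 50-base stretches of the Krtap19-1 transcript 16.8% also occur in transcripts of other genes, and of those of Krtap19-2 15.2%, so part of their reads may have been split between them. Krtap19-4 and Krtap19-5 share none, and Krtap19-3, Krtap16-3 and Krtap19-9b share 1.68%, 1.09% and 0.242%. In sum, the group was at 506, 601 and 728 CPM in saline and at 323, 280.5 and 390.4 CPM in rIL-31 libraries. Its part of the summed level of all members went from between 14.8% and 17.5% in saline to between 8.88% and 10.2% in rIL-31 libraries. The other 16 members on chromosome 16 summed to between 2833 and 3357 CPM in saline and to between 2770 and 3346 CPM in rIL-31 libraries, ranges that largely coincide.

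Promoter sequence is shown for the 6 members that fell and the 3 that rose, so that the letters before their starts can be read beside the calls. RefSeq promoter windows of GRCm38.p6, from 250 bases before to 50 bases after the start, were found for 28 of the 31 members. The 100 bases before the annotated start are printed 5′ to 3′ on the strand of the gene, with the letters TATATAAG and TATAAA, forms of a TATA box, in capitals.
Krtap19-1 (chr16:88869411-88869510, - strand): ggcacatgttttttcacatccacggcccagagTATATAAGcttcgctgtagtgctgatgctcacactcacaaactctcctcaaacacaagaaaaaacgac
Krtap19-2 (chr16:88874270-88874369, - strand): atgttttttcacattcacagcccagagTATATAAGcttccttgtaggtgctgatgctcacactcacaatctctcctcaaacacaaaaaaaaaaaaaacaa
Krtap19-3 (chr16:88878039-88878138, - strand): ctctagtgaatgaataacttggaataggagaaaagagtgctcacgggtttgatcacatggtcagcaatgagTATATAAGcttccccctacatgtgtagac
Krtap19-4 (chr16:88885090-88885189, - strand): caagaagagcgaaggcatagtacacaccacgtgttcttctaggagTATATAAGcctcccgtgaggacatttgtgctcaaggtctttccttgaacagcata
Krtap19-5 (chr16:88896450-88896549, - strand): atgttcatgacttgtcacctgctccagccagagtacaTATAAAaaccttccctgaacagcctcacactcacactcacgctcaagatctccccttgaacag
Krtap16-3 (chr16:88962874-88962973, - strand): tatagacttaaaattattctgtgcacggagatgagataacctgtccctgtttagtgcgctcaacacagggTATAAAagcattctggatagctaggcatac
Krtap6-5 (chr16:89047900-89047999, - strand): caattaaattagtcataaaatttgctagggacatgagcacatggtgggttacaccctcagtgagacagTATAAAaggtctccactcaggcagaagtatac
Krtap5-5 (chr7:142229972-142230071, - strand): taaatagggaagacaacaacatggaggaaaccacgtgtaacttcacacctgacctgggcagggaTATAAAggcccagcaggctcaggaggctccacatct
Krtap10-4 (chr10:77827071-77827170, - strand): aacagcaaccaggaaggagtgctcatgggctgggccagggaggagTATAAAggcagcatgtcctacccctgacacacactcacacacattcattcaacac

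Krtap19-1, Krtap19-2, Krtap19-3 and Krtap19-4 hold TATATAAG, at 68, 73, 29 and 55 bases before their annotated starts. Among the 28 members with a window, searched on both strands, 6 hold these letters (21.4%), against 1.08% of the 17909 promoters of genes in the table. The remaining 2 holders are Krtap14 and Krtap15, which did not pass the test. Krtap19-5 and Krtap16-3, which fell, hold TATAAA in its place, as do all 3 members that rose. TATAAA was present in 20 of the 28 windows (71.4%) and in 13% of all promoters. Of the 20 windows of KAP genes on chromosome 11, 19 held TATAAA (95%) and 1 held TATATAAG (5%). The search for TATATAAG was added after the sequences were seen. CTTTGT, letters that LEF and TCF factors can bind, was present in 11 of the 28 windows (39.3%), against 17% of all promoters. It was present in 5 of the 6 members that fell, in none of the 3 that rose and in 5 of 18 that did not pass, Krtap19-9b among these. The 6 that fell are neighbouring genes of 1 group, so their windows are not independent cases. Among KAP genes on chromosome 11, 3 of 20 windows held CTTTGT (15%). CTTTGA, another form of those letters, was present in 2 of the 6 that fell, 1 of the 3 that rose and 5 of 18 that did not pass, or 28.6% of members with a window, and in 15% of all promoters. TTTATNGG and TTAATNGG, letters of the kind HOX factors can bind, were found in 3 and 2 of the 28 windows, or 10.7% and 7.14%, against 2.7% and 1.5% of all promoters. These matches describe the letters and do not show binding.

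Since the Krtap19 group was not planned beforehand and holds every member that fell, none of the remaining glycine-tyrosine members of chromosome 16 did. Of the 7 outside the Krtap19 group, 1 rose and 6 did not pass, with a median log2 fold change of 0.09 and a range from -0.21 to 0.56. Krtap6-5, one of the Krtap6 genes of the hair cortex, rose. It was at 213, 206 and 233 CPM in saline and at 314, 299 and 320 CPM in rIL-31 libraries. The groups did not overlap, and the level was 1.43-fold higher (log2 fold change 0.52, standard error 0.10, FDR 0.0146). The call was lost without saline replicate 2 (FDR 0.140). Of the 50-base stretches of its transcript, 19.1% also occur in other transcripts, mostly those of neighbouring genes without a Krtap symbol and of Krtap6-1. Krtap6-1 itself was at 335 ± 19.7 (SD, n = 3) CPM in saline and at 358 ± 17.7 (SD, n = 3) in rIL-31 libraries (log2 fold change 0.09, standard error 0.10). Krtap6-2 had a log2 fold change of 0.23 (standard error 0.12). Of 4 tested genes without a Krtap symbol within the chromosome 16 cluster, 1 rose, 1 fell and 2 did not pass. Gm10228, which shares sequence with Krtap6-5, rose (log2 fold change 0.38, FDR 0.0543). The gene that fell was 2310061N02Rik (log2 fold change -1.04, FDR 0.0841), which lies outside the stretch of the Krtap19 group.

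Krtap8-1, the member with the highest level per kilobase, did not pass. It was at 524, 558 and 638 CPM in saline and at 543, 472 and 588 CPM in rIL-31 libraries (log2 fold change -0.10, standard error 0.12, FDR 0.699), with overlapping groups. Krtap22-2 was at 142, 211 and 242 CPM in saline and at 177, 128 and 208 CPM in rIL-31 libraries. The difference of -0.21 on the log2 scale (standard error 0.21) was about as large as its error, and in neither group did the replicates lie close together. Krtap21-1 had a log2 fold change of -0.06 (standard error 0.14). Krtap20-2 was near the lower limit of detection, with 19, 20 and 27 counts in saline and 6, 54 and 46 counts in rIL-31 libraries, and had a log2 fold change of 0.56 (standard error 0.69).

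Among the high sulfur genes, 9 were tested and none passed, with a median log2 fold change of -0.01. Of these, 1 had an unadjusted p below 0.05 in edgeR's quasi-likelihood test, Krtap27-1, which was also the 1 gene called by DESeq2 (FDR 0.0472) and by edgeR's exact test (FDR 0.0308), and limma-voom called 0. Krtap15, known also as Pmg2, was at 471, 548 and 647 CPM in saline and at 469, 352 and 625 CPM in rIL-31 libraries (log2 fold change -0.20, standard error 0.19). It lies next to the Krtap19 genes, yet its groups overlapped. Without rIL-31 replicate 3 it was at -0.44 with an FDR of 0.0639. Krtap14, known also as Pmg1, was at 183, 179 and 175 CPM in saline and at 190.1, 175 and 167 CPM in rIL-31 libraries (log2 fold change -0.01, standard error 0.10). Krtap11-1, at 0.04 (standard error 0.10), Krtap26-1, at 0.07 (standard error 0.11), and Krtap24-1, at -0.06 (standard error 0.12), were likewise close to 0. Krtap24-1 overlaps an antisense gene and Krtap15 another gene on its own strand, so their reads may not be separable.

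Krtap7-1 fell in this class by codon content, although it is usually counted with the glycine-tyrosine genes, and had a log2 fold change of 0.14 (standard error 0.10). Krtap13-1 was at -0.19 (standard error 0.11, FDR 0.368), with every rIL-31 library below every saline library. Krtap27-1 was expressed at a low level. It was at 2.52, 2.77 and 3.54 CPM in saline and at 1.02, 1.21 and 1.67 CPM in rIL-31 libraries. The groups lay apart and the log2 fold change was -1.17 (standard error 0.38), but the FDR of 0.111 missed the threshold, as it did without each library other than rIL-31 replicate 3 (FDR 0.0471). At least 10 counts in every library, a stricter filter, also gave an FDR below the threshold, of 0.0736.

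The ultrahigh sulfur members are the Krtap5 genes of chromosome 7 and the Krtap10 genes of chromosome 10. They lay above 0 in edgeR's test on all 6 libraries without offsets. With offsets for GC content and transcript length, Krtap5-2 was at -0.08 and Krtap5-3 at -0.05. In human hair follicles members of both families are expressed in the cuticle of the hair shaft. Of 7 tested, 2 rose and 5 did not pass, and all 7 had a log2 fold change above 0, from 0.09 to 0.91 with a median of 0.62. Krtap5-5 was at 30.2, 26.4 and 24.7 CPM in saline and at 53.6, 39.8 and 41.9 CPM in rIL-31 libraries. The lowest rIL-31 library lay above the highest saline library, and the level was 1.66-fold higher (log2 fold change 0.74, standard error 0.15, FDR 0.0189). The call was lost without saline replicate 2 or saline replicate 3, with FDRs up to 0.124. Krtap10-4 was at 11.9, 14.1 and 11.4 CPM in saline and at 22.9, 18.0 and 16.4 CPM in rIL-31 libraries. It was 1.53-fold higher (log2 fold change 0.62, standard error 0.17, FDR 0.0721), a call kept only without rIL-31 replicate 3 and lost without each other library (FDR up to 0.270).

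Krtap5-4 had the most positive log2 fold change of the members, 0.91 (standard error 0.34), and did not pass (FDR 0.166). It was at 12.5, 6.76 and 6.25 CPM in saline and at 24.4, 13.4 and 10.3 CPM in rIL-31 libraries. Saline replicate 1 and rIL-31 replicate 1 stood above the rest of their groups, and the former lay above rIL-31 replicate 3. The FDR was 0.0675 with DESeq2, and it was also below 0.1 without saline replicate 1 or without rIL-31 replicate 3. In Krtap5-1 the same 2 libraries were the highest of their groups, with 7.27, 4.21 and 3.50 CPM in saline and 10.1, 7.43 and 5.95 CPM in rIL-31 libraries, and the groups overlapped (log2 fold change 0.65, standard error 0.31, FDR 0.281). Krtap10-10 was at 0.45 (standard error 0.16, FDR 0.142), with every rIL-31 library above every saline library, and its FDR was 0.0415 without rIL-31 replicate 3. Krtap5-2, at 0.09 (standard error 0.28), Krtap5-3, at 0.15 (standard error 0.66), and the high sulfur Krtap12-1 of chromosome 10, at 0.29 (standard error 0.32), had errors as large as their changes. Krtap5-1, Krtap10-4 and Krtap10-10 share 54.3%, 41.9% and 44.1% of their 50-base stretches with other transcripts, so their counts are uncertain. The same holds to a lesser degree for Krtap5-5, which rose and shares 28.4%, and for Krtap5-2, which shares 28.75%.

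**Figure D3:**
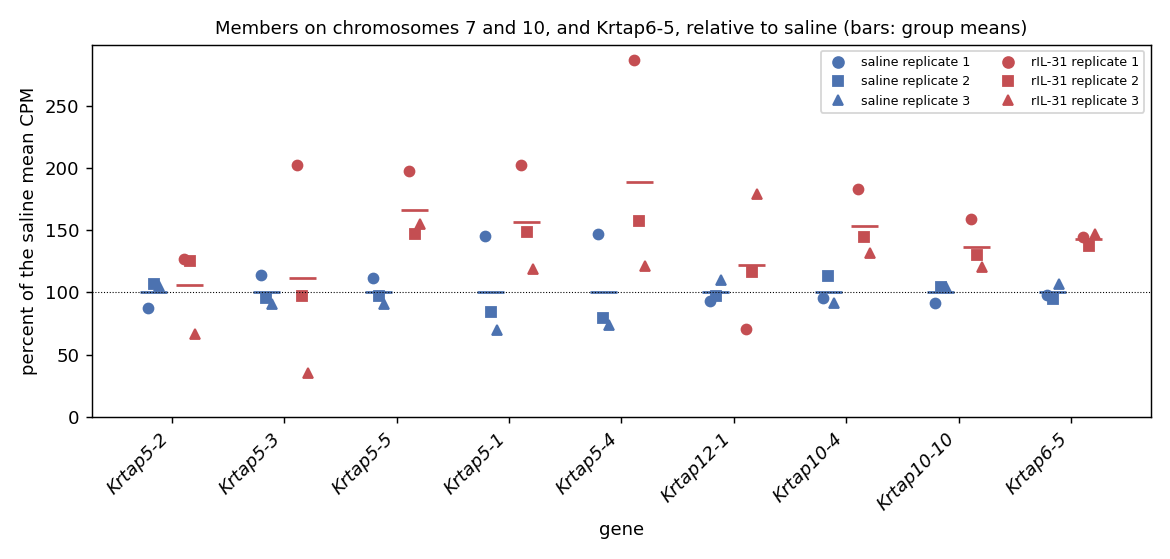
Level of the 8 members on chromosomes 7 and 10, and of Krtap6-5, in each library as a percent of the saline mean (marker shape: replicate; bar: group mean; dotted line: saline mean). The groups lie apart in Krtap5-5, Krtap10-4, Krtap10-10 and Krtap6-5 and overlap in the remaining 5 genes. Of all tested genes 12.8% lay apart with rIL-31 higher, and this set holds every member that rose.

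Across all tested members the groups did not overlap in 4 genes that were higher and 8 that were lower, where 12.8% and 12.9% of all tested genes lay apart in these directions. At the thresholds given in the study's methods, a p below 0.05, an FDR below 0.1 and more than 2-fold, no member was higher and 4 were lower, against 1.15% and 0.696% of all tested genes. The 4 were Krtap19-1, Krtap19-2, Krtap19-4 and Krtap19-5. By codon content the glycine-tyrosine class had 1 member higher, 6 lower and 7 that did not pass. All 6 that were lower belong to the Krtap19 group, which was not planned beforehand. Of the 7 glycine-tyrosine members outside it, 1 was higher and 6 did not pass. Glycine and tyrosine codons made up from 54.0% (Krtap19-3) to 65.5% (Krtap19-9b) in the group. In the 7 outside it they made up from 47.5% (Krtap8-1) to 69.2% (Krtap6-1). Whether codon content has a part in these calls was not tested.

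**Figure D4:**
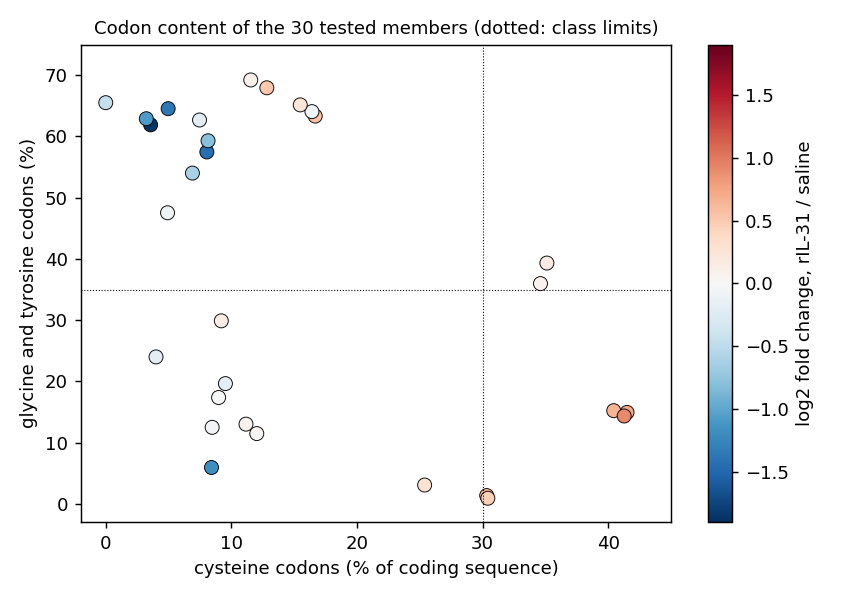
Share of cysteine codons (x axis, %) and of glycine and tyrosine codons (y axis, %) in the coding sequence of the 30 tested members, coloured by log2 fold change (rIL-31 over saline), with dotted lines at the class limits of 30% and 35%. The genes with the largest falls sit at the upper left, and the 7 points right of 30% cysteine, the ultrahigh sulfur members, are all above 0.

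Some of the scatter within groups followed the library rather than the treatment. On chromosome 16, saline replicate 1 was the lowest saline library in 15 of 22 tested members and saline replicate 3 the highest in 18. Among the rIL-31 libraries replicate 2 was the lowest in 12 and replicate 3 the highest in 11. Over all tested genes with a known transcript, GC content and the deviation of a library from the average library had a Spearman correlation of 0.383 and 0.272 in rIL-31 replicates 1 and 2, and of -0.25 in rIL-31 replicate 3 and -0.115, -0.203 and -0.238 in the saline libraries. These correlations are across genes, which are not independent replicates. Members of chromosome 16 have transcripts of 40.5% to 55.9% GC, and the ultrahigh sulfur members of 56.6% to 61.3%. After offsets for GC content and transcript length that kept the depth of each library, all 30 tested members kept their call. With these offsets 5.11% of all tested genes were higher and 3.12% lower. Krtap19-4 was at -1.88, Krtap19-1 at -1.27, Krtap6-5 at 0.64 and Krtap5-5 at 0.59 on the log2 scale. Among the ultrahigh sulfur members the median was 0.53, and Krtap5-2 and Krtap5-3, neither of them called, turned below 0.

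Other genes of the hair shaft and follicle were compared with the members. On chromosome 11, 17 of 22 KAP genes rose, none fell and 5 did not pass, with a median log2 fold change of 1.23. Their summed level lay between 802 and 973 CPM in saline and between 1431 and 1801 CPM in rIL-31 libraries. Of 15 hair shaft keratin genes, 4 rose and 11 did not pass (median 0.20), but with the GC and length offsets 3 were higher and 2 lower (median 0.05). Of 18 regulators of hair matrix and precortex 2 rose, 5 fell and 11 did not pass. Shh, the hedgehog ligand of the hair matrix, fell by 1.38 on the log2 scale (standard error 0.19) and Msx1 by 1.16 (standard error 0.22). Wnt10b fell by 0.73 (standard error 0.17), Msx2 by 0.64 (standard error 0.16) and Foxq1 by 0.48 (standard error 0.13). The 2 that rose were Wnt10a, at 0.82 (standard error 0.24, FDR 0.0866), and Vdr, at 0.36 (standard error 0.10, FDR 0.0665). Both calls were kept only without rIL-31 replicate 3 (FDR otherwise up to 0.308 and 0.270), and the groups overlapped in Wnt10a. With 1 library left out, Wnt10b kept its call in 3 of 6 fits and Msx2 and Foxq1 in 2 of 6. Shh and Msx1 kept theirs in all 6. Hoxc13, which activates hair keratin genes, was at -0.03 (standard error 0.11), and Foxn1, mutated in nude mice, at -0.17 (standard error 0.13). Msx2, Foxq1, Wnt10a, Vdr, Hoxc13 and Foxn1 were named after their values were seen. Of 8 other hair shaft proteins 2 fell and 6 did not pass, of 9 inner root sheath and companion layer genes 1 fell and 8 did not pass, and of 8 bulge and outer root sheath genes 2 rose and 6 did not pass. Of 9 tested dermal papilla genes, 2 fell, among them Corin at -1.34 (standard error 0.20). With the offsets the counts of lower genes were 4 for other hair shaft proteins, 2 for inner root sheath and companion layer and 1 for dermal papilla, and 4 bulge and outer root sheath genes were higher.

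**Figure D5:**
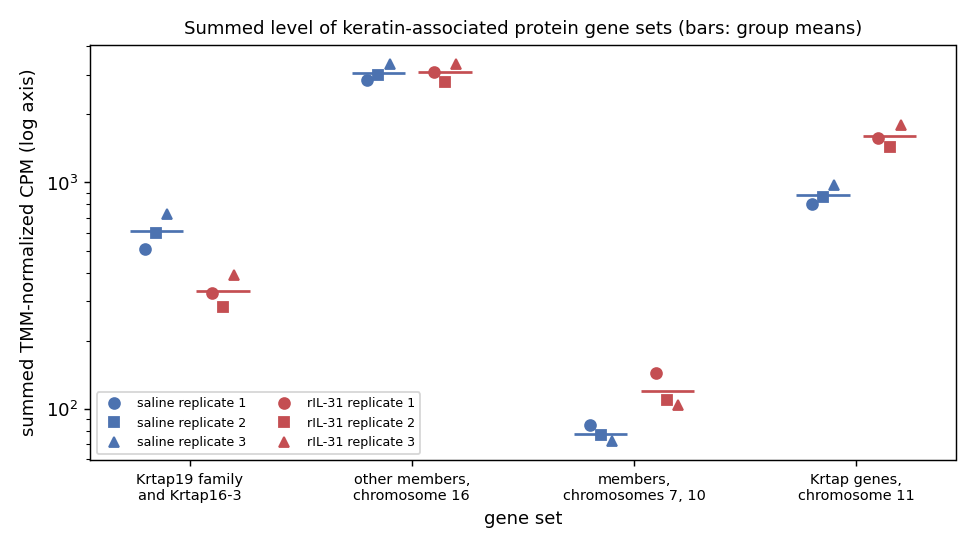
Summed TMM-normalized CPM (log axis) of 4 sets of KAP genes in each library (marker shape: replicate; bar: group mean). The Krtap19 group, which was not planned beforehand and holds every member that fell, is lower in every rIL-31 library than in every saline library. The members of chromosomes 7 and 10 and the genes of chromosome 11 are higher, and the other members on chromosome 16 overlap.

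Markers of other skin cells moved beside the members. Melanocyte markers fell in 9 of 12 cases, and their summed level was between 722 and 747 CPM in saline and between 339 and 381 CPM in rIL-31 libraries. Interfollicular epidermis markers rose in 7 of 10 cases and 1 fell, with sums of 7790.3 to 8599.6 CPM in saline and 12338 to 16650 CPM in rIL-31 libraries. Stress keratins rose in 3 of 4 cases, and sebaceous gland genes in 4 of 8. Of 6 fibroblast and 6 adipocyte markers none passed edgeR's test (0 and 1 at an unadjusted p below 0.05, and 0 called by DESeq2, the exact test or limma-voom). The fibroblast sums were 13396 to 13649 CPM in saline and 13509.5 to 15369 CPM in rIL-31 libraries, and the adipocyte sums 2199.6 to 2635 and 1688 to 2236 CPM. Of 6 skeletal muscle genes 1 fell, of 8 tested leukocyte markers 2 rose, and of 8 proliferation genes 1 rose and 1 fell. With the offsets 2 skeletal muscle genes were lower, 3 leukocyte markers higher and no proliferation gene higher, and the counts of the other marker lists in this paragraph stayed as given. None of the markers was at 0 in all libraries. The part of these marker changes in the results for the members was not tested.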

How the data were processed

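RNA-Seq libraries of dorsal skin, 3 saline and 3 rIL-31, were compared. The authors deposited read counts per Entrez gene number, not normalized, in 1 table. The submitters' processing notes name bcl2fastq, CASAVA 1.8, TopHat, DESeq and mm10. The counting program, its use of strand and its handling of reads that map to several genes were not given in the sources used here. Symbols came from RefSeq GRCm38.p6, and transcript lengths, GC and codon content from GENCODE M21, since no protein table was at hand. edgeR 4.0.16 in R 4.3.3 was used with filterByExpr (minimum count 10), TMM and the quasi-likelihood test with treatment as the only term, after a test on simulated data. Classes were ultrahigh sulfur (over 30% cysteine codons), high glycine-tyrosine (over 35% glycine and tyrosine codons) and high sulfur (the rest).

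The members and lists were chosen with earlier results of these data known. Members named by rule were the 10 with the highest mean CPM, the 6 with the smallest p and the 4 most positive and 4 most negative log2 fold changes; the other members were named to account for all. From each list the 3 genes with the smallest p could be named. Alternatives were DESeq2 1.42.0, edgeR's exact test, limma-voom (limma 3.58.1), other normalizations and filters, a replicate block, GC and length offsets, and each library left out.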

Additional observations from a re-analysis of the deposited data

How the results depend on the processing

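Across the settings that used all 6 libraries, members lower numbered from 6 to 8 and members higher from 3 to 5. With the replicate number as a block 5 members were higher and 8 lower, Krtap5-4, Krtap5-1, Krtap27-1 and Krtap19-9b being added. With it 349 genes passed the study's thresholds against 302. For the block, and for the other tools, normalizations and filters, the share of all tested genes called at this FDR was not worked out. Genes with an unadjusted p below 0.05 in edgeR's quasi-likelihood test numbered 3773 of 16371 with the block and 3200 without it. The added calls may therefore reflect a gain over all genes. The labels do not say whether the replicate numbers pair the samples. Same-numbered samples had correlations of 0.077, -0.02 and 0.216 in their deviations from the group means. Differently numbered samples had correlations from -0.227 to 0.148. With so few samples these values cannot settle whether the samples are paired. Leaving out 1 library gave 0 to 6 members higher, 5 to 9 lower and 205 to 547 genes past the thresholds. Among the 19 members named by rule, the direction turned for 3, each near 0 and not called. Krtap11-1 was at -0.076 with GC and length offsets, -0.081 with these and the block, and between -0.034 and 0.077 with 1 library left out. Krtap14 was at 0.003 with library size only, 0.021 with the offsets, 0.015 with offsets and block, and between -0.071 and 0.026 with 1 library left out. Krtap21-1 was between -0.176 and 0.033 with 1 library left out. Members not named by rule also turned with 1 library left out. Krtap5-3 was between -0.600 and 0.578, Krtap5-2 between -0.067 and 0.333, and Krtap12-1 between -0.098 and 0.565. Krtap24-1 was between -0.138 and 0.0007. With the block Krtap5-3 was at -0.080. Krtap5-3 and Krtap20-2, with few counts and replicates that lay far apart, had standard errors of 0.66 and 0.69, so a log2 difference of 1 was not detectable in these 2 genes.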
